A study of Mus musculus with 61 samples.

Results

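Mouse embryonic stem cells (mESCs) that lacked both maternal and zygotic ZFP708 were compared with wild-type (WT) mESCs by RNA-seq, gene by gene. The comparison used 3 WT and 3 knockout (KO) libraries of the 61 libraries in the series. Genes were taken into it where their normalized count reached 1 in at least 3 of these 6 libraries, which left 11963 of the 18396 genes in the table. By their labels the KO cells were maternal and zygotic null, so neither the oocyte nor the embryo supplied the protein. The study describes the allele as a 4-base deletion that shifts the reading frame of *Zfp708*. The cells of both genotypes came from blastocysts. According to the study's methods such lines were derived on mouse embryonic fibroblast feeders in medium with inhibitors of MEK and GSK3 and then adapted to gelatin without feeders, while the labels give a medium with LIF and serum for the cells used here. The labels name no strain, and the study describes 3 independently isolated lines per genotype for methylation analysis without saying whether these gave the RNA libraries, so p-values measure only the spread between these samples. For context, the comparison was set beside pools of 10 blastocysts from KO and WT mothers (3 of each), in which only the maternal protein was missing, and beside 3 control and 3 FLAG-ZFP708 overexpressing (OE) libraries of E14 cells, an established mESC line.

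ZFP708 belongs to the Krüppel-associated box zinc-finger proteins. These proteins bind chosen DNA sequences, many of them in retrotransposons, through arrays of zinc fingers, and their KRAB domain recruits TRIM28, which brings histone H3K9 methyltransferases, heterochromatin proteins and protection of DNA methylation. ZFP708 binds RMER19B, a long terminal repeat retrotransposon. mESCs are cultured from the inner cell mass, grow without limit, and keep a network of transcription factors led by OCT4 (*Pou5f1*), SOX2 and NANOG. When pluripotent cells change state, the balance between glycolysis and mitochondrial oxidation of pyruvate is among the features known to change with them.

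The libraries also differed in ways that cut across genotype. The WT libraries held 15746788 to 16588819 recovered reads in genes and the KO libraries 15272758 to 19596785. WT libraries 1 and 3 were close to each other, with a mean chi-square of 3.28 per gene between their reads where sampling alone gives about 1, as were KO libraries 2 and 3 (1.72), whereas the other pairs within a genotype gave 10.97 to 34.96. The close pairs differed by more than sampling noise, which repeat libraries of 1 line could also do. WT libraries 1 and 3 further differed in the Y-linked gene *Ddx3y*, with 1212 and 2 reads, where KO libraries 2 and 3 held 793 and 1167. Whether either pair comes from 1 line was not tested. The close pairs were analysed as separate samples because the sources used here do not say whether they are, and counts with each pair merged are given below. WT library 2 was the farthest from its group. Whole chromosomes also moved. Taking each gene's log2 value relative to its mean over the 6 libraries, the median over the 542 genes tested on chromosome 3 was 0.27, -0.13 and 0.18 in WT libraries 1 to 3 and -0.15, -0.10 and -0.07 in KO libraries 1 to 3. On chromosome 8 the medians were -0.09, 0.48 and -0.09 in WT and -0.11, -0.09 and -0.09 in KO, and on chromosome 6 they were -0.12, 0.34 and -0.15 in WT and -0.09, -0.01 and 0.02 in KO. WT libraries 1 and 3 thus stood high on chromosome 3, and WT library 2 on chromosomes 6 and 8. Genes of the X chromosome stood high in KO library 1 alone, at 0.38, against -0.12 to -0.04 in the other libraries, whereas each library's median on the 16 other autosomes lay between -0.08 and 0.04. Exact permutation tests of the KO minus WT difference over the 6 libraries gave two-sided p = 0.3 for chromosomes 3 and 8, 1 for chromosome 6 and 0.8 for the X chromosome, where 0.1 is the smallest value that 3 against 3 libraries allow.

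**Figure D1:**
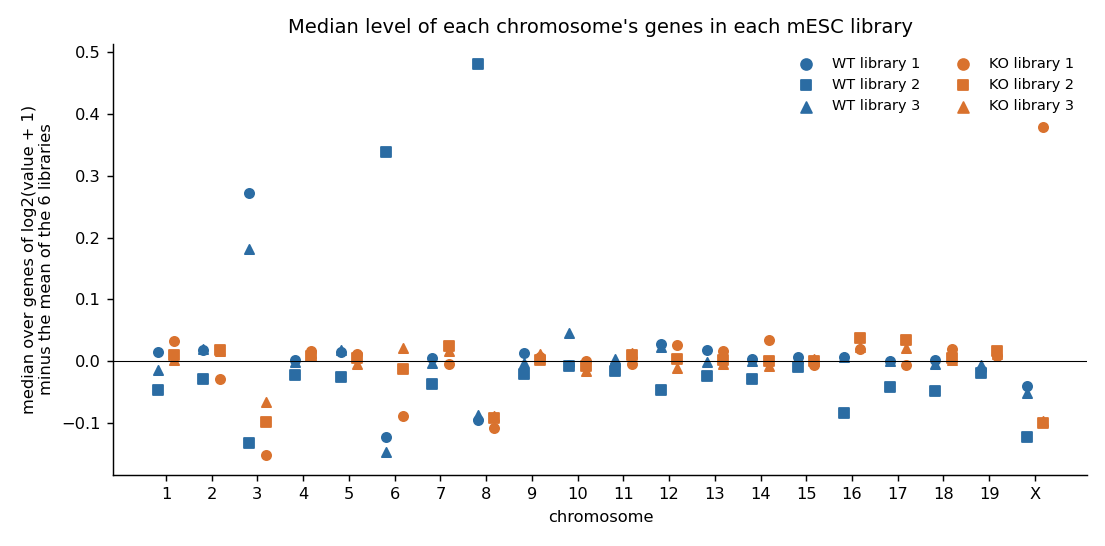
Median over each chromosome's genes of log2(normalized count + 1) minus the mean of the 6 mESC libraries, 1 point per library (WT blue, KO orange, marker by library number). WT libraries 1 and 3 stand high on chromosome 3, WT library 2 on chromosomes 6 (0.34) and 8 (0.48), and KO library 1 on the X chromosome (0.38).

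Genes of the Y chromosome split the libraries across the genotypes. *Ddx3y* was at 63.8, 43.1 and 0.1098 normalized counts in WT libraries 1 to 3 and at 0, 44.9 and 51.4 in KO libraries 1 to 3, so WT library 3 and KO library 1 were at or near 0. *Xist*, the RNA that coats the inactive X chromosome, was at 6.4005 in KO library 1 and at most 0.604 in the other 5. Their part in the results was not tested. Values without the genes of chromosomes 3, 6, 8, X and Y are given with the counts.

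The RNA of the targeted gene was present at a low level in both genotypes. The study describes ZFP708 as not expressed, or only marginally, in wild-type mESCs. The mean of *Zfp708* RNA was 6.67 normalized counts in control and 654 in OE E14 libraries. *Zfp708* (mm9, chromosome 13, 67170336 to 67198912) was at 7.11, 6.95 and 7.14 normalized counts in WT libraries and 9.004, 7.81 and 8.95 in KO libraries (log2 fold change 0.25 ± 0.11 (SE), adjusted p = 0.168, limma). All KO libraries were above all WT libraries, but the difference did not pass the threshold of 0.05. Since the allele is a small deletion, transcripts can persist, and the RNA level does not check the labels. *Zfp708* lies in a cluster of related zinc-finger genes that includes the regulators of sex-limitation *Rsl1* and *Rslcan18*. Of the 23 numbered zinc-finger and Rsl genes within 2 Mb of *Zfp708*, itself included, 21 were tested. Only *Zfp459* passed the threshold, against 13.9% of all genes tested. *Zfp459* was at 26.3, 33.3 and 24.9 in WT and 41.3, 53.6 and 56.5 in KO libraries, with no overlap between the groups (log2 fold change 0.82 ± 0.15 (SE), adjusted p = 0.0217). Its call was kept in 2 of 6 fits without 1 library. *Rslcan18* was at 2.05, 2.14 and 1.54 in WT and 1.79, 1.87 and 1.94 in KO (log2 fold change -0.02 ± 0.14 (SE), adjusted p = 0.949). The median log2 fold change of the 21 genes was 0.09, against -0.01 over all 11963 genes tested.

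Among these genes, 988 (8.26%) stood higher in KO mESCs and 670 (5.60%) stood lower at an adjusted p under 0.05 (limma on log2(normalized count + 1), two-sided, Benjamini-Hochberg adjustment over all genes tested). Fold changes are on that scale, which understates the change of genes near 0. A fold change of at least 1 on the log2 scale was reached by 221 of the higher and 83 of the lower genes. The groups did not overlap for any of the 1658 genes called, and they did not overlap for 39.3% of all genes tested. On the recovered reads edgeR's quasi-likelihood test called 986 higher and 690 lower. A smaller set of 189 genes (1.58%) was called with the same sign in limma, edgeR, DESeq2 and each of 6 limma fits that left out 1 library. This stable set held 138 higher genes (log2 fold change 0.36 to 2.91) and 51 lower genes (-2.43 to -0.41). The fits without 1 library kept the filter of 3 libraries, so the 87 genes called whose WT or KO libraries were all under 1 could not enter it.

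These counts rest on 6 separate libraries, and no fit with merged pairs entered the definition of the stable set. With the close pairs averaged, 2 WT samples against 2 KO samples left 0 genes past the threshold in limma (1830 at an unadjusted p under 0.05), and with their reads summed edgeR also called 0 (1863 at an unadjusted p under 0.05) while DESeq2 called 350 higher and 161 lower. Averaging with the spread taken over all mESC and E14 groups gave 1111 higher and 850 lower. The summed and the shared-spread settings were chosen after seeing the data. Leaving out 1 library gave between 148 higher and 67 lower genes (without KO library 2) or 158 and 63 (without KO library 3) and 2041 higher and 1844 lower (without WT library 2). Without WT library 1 there were 351 and 142, without WT library 3 283 and 124, and without KO library 1 530 and 369. Without the genes of chromosomes 3, 6, 8, X and Y, also chosen after seeing the data, 927 were higher and 557 lower among 9771.

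**Figure D2:**
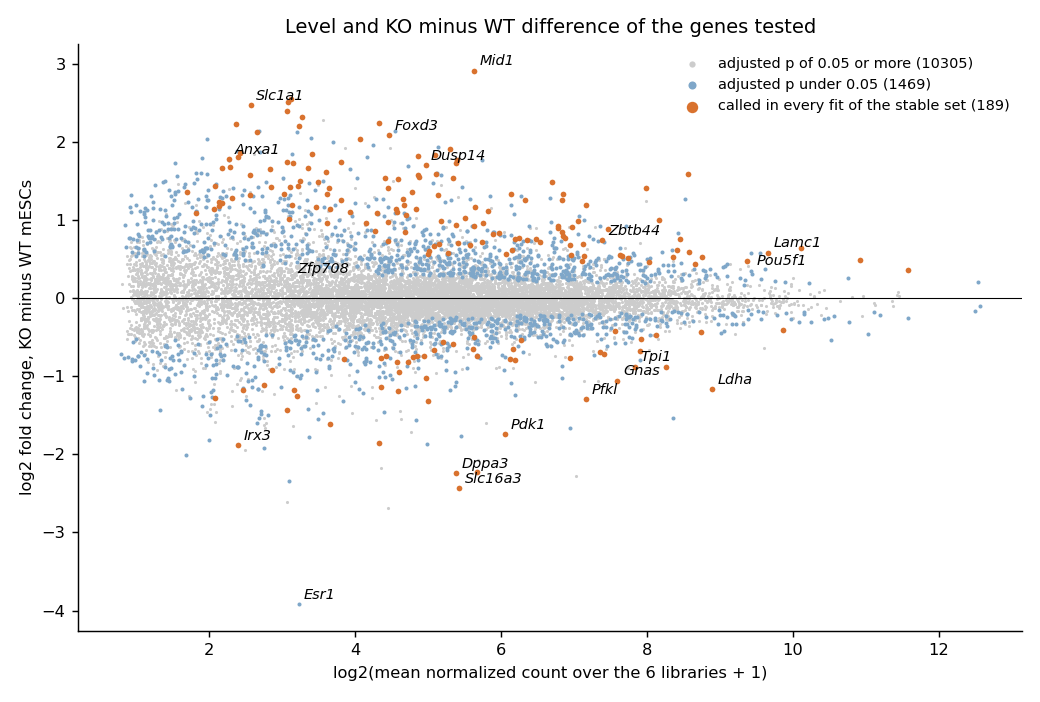
Each point is a gene tested, with its mean level over the 6 libraries (x axis, log2 of normalized count + 1) and its KO minus WT log2 fold change (y axis). Blue marks genes past an adjusted p of 0.05 and orange the 189 genes of the stable set, with *Esr1* lowest at -3.92 and *Mid1* highest among the stable genes at 2.91.

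Many genes of glycolysis and of the response to low oxygen were lower in KO mESCs. Of 28 genes listed 27 were tested, and 16 were lower and 1 higher, against 5.60% lower and 8.26% higher over all genes. The median log2 fold change of the 27 was -0.68, against -0.01 over all genes tested. Among the 21 tested members that lie outside chromosomes 3, 6, 8 and X, 12 were lower and 1 higher. Leaving out 1 library gave 6 to 22 lower genes, and the 6 lower genes of the stable set were *Slc16a3*, *Pdk1*, *Pfkl*, *Ldha*, *Tpi1* and *Mif*. Glycolysis turns glucose into pyruvate. Lactate dehydrogenase then reduces pyruvate to lactate, which leaves the cell through monocarboxylate transporters, unless pyruvate enters the mitochondrion and the pyruvate dehydrogenase complex. The hypoxia-inducible factors (HIFs), which accumulate when oxygen-dependent prolyl hydroxylases are inactive, are known to raise many genes of this list.

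The HIF core sequence, ACGTG or GCGTG on either strand, was looked for in the 250 bases before the start of each gene (RefSeq, GRCm38.p6), and 4 upstream regions are shown because their genes were lower in every fit of the stable set and hold a match. They lie at chr11:120948817-120949066 (plus strand) for *Slc16a3*, chr7:46845554-46845803 (plus strand) for *Ldha*, chr10:78009808-78010057 (minus strand) for *Pfkl* and chr2:71872974-71873223 (plus strand) for *Pdk1*, are written from the far end towards the start site, and carry matches in capitals, with matches that overlap joined.
Slc16a3: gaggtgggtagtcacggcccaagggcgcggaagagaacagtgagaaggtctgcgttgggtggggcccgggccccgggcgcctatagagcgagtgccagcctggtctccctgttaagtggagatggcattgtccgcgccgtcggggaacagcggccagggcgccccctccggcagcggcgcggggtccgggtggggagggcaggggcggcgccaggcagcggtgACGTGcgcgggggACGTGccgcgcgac
Ldha: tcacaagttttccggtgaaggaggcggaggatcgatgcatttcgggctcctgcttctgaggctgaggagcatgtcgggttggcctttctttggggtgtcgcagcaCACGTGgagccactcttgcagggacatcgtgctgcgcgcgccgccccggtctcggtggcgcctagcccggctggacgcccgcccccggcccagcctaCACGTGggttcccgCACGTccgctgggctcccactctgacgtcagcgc
Pfkl: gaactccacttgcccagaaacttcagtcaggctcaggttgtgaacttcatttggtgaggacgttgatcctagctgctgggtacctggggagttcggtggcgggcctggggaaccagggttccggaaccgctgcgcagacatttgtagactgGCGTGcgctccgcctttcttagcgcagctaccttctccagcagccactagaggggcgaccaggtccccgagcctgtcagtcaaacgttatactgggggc
Pdk1: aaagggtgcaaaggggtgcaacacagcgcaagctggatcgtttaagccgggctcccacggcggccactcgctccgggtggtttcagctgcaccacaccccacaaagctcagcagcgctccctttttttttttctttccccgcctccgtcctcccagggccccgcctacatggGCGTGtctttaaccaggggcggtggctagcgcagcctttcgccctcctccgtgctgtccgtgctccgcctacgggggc
These matches are a description of the sequence. The RefSeq table matched 24 of the 27 tested list genes and 13 of the 16 lower ones, and 8 of those 13 (61.5%) held a match. The share was 58.3% over the 9519 tested genes with an entry, 62.7% over genes lower in KO, 53.2% over genes higher in KO and 38.6% over all 32841 entries, so the lower glycolysis and hypoxia genes were near the share of all tested genes.

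*Slc16a3* encodes the lactate exporter MCT4 (mm9, chromosome 11, 120809794 to 120822182). It was at 84.3, 55.5 and 74.96 normalized counts in WT libraries 1 to 3 and at 9.98, 14.4 and 12.8 in KO libraries 1 to 3. All KO libraries were far below all WT libraries, of which library 2 was the lowest (log2 fold change -2.43 ± 0.19 (SE), adjusted p = 0.0021). *Ldha*, the main lactate dehydrogenase subunit of proliferating cells (mm9, chromosome 7, 54096845 to 54110997), was at 738, 567 and 675 in WT and 289.8, 293 and 292 in KO libraries (log2 fold change -1.17 ± 0.09 (SE), adjusted p = 0.00228). The KO libraries lay within a few counts of each other and below every WT library. *Pdk1*, a kinase that inactivates pyruvate dehydrogenase, was at 104, 86.5 and 111 in WT and 19.96, 33.3 and 37.3 in KO libraries (log2 fold change -1.74 ± 0.23 (SE), adjusted p = 0.00821). KO library 1 was the lowest of the 6.

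Within glycolysis itself, the liver-type phosphofructokinase gene *Pfkl* fell from 203 ± 28.8 to 81.6 ± 0.938 (SD, n = 3) normalized counts (log2 fold change -1.29 ± 0.11 (SE), adjusted p = 0.00228), and triose phosphate isomerase *Tpi1* from 295 ± 6.49 to 160.4 ± 10.2 (SD, n = 3) (log2 fold change -0.88 ± 0.06 (SE), adjusted p = 0.00164). Neither gene's groups overlapped. *Gpi1*, *Aldoa* and *Pkm*, 3 further enzymes of the pathway, fell by less, with log2 fold changes of -0.34, -0.26 and -0.46 (adjusted p = 0.0268, 0.0395 and 0.0165, limma). *Eno1* (-0.63), *Pgk1* (-0.68) and *Pgam1* (-0.24) had negative values with adjusted p from 0.0504 to 0.0842. In *Eno1* KO library 1 (696) came close to WT library 2 (705). The hexokinase gene *Hk1* rose, from 62.997, 77.6 and 50.03 in WT to 93.4, 110.3 and 109.9 in KO libraries (log2 fold change 0.73 ± 0.16 (SE), adjusted p = 0.0322), and *Hk2* was at 424, 582 and 386 in WT and 341, 377 and 406 in KO (log2 fold change -0.29 ± 0.15 (SE), adjusted p = 0.257), with KO library 3 above WT library 3. *Pfkp* (0.08) and the growth factor gene *Vegfa* (0.07) did not pass. *Ldha*, *Tpi1* and *Mif* have processed copies elsewhere in the genome that can share reads with them.

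Glucose transporter genes were lower too. *Slc2a1* (GLUT1) was at 557, 317 and 599 normalized counts in WT and 169, 154 and 167 in KO libraries (log2 fold change -1.53 ± 0.23 (SE), adjusted p = 0.0121), and *Slc2a3* (GLUT3) at 1602, 1932 and 1685 in WT and 1177, 1199 and 1223 in KO (log2 fold change -0.53 ± 0.07 (SE), adjusted p = 0.00821). WT library 2 was the lowest WT library for *Slc2a1* and the highest for *Slc2a3*, which lies on chromosome 6. The list also holds genes known as HIF targets outside glycolysis, of which some were lower. *Egln1*, the prolyl hydroxylase that marks HIF for degradation, was at 48.5, 63.7 and 49.04 in WT and 26.9, 29.1 and 25.5 in KO (log2 fold change -0.95 ± 0.12 (SE), adjusted p = 0.00747). *Ndrg1*, *Ankrd37*, *Bnip3* and *Ero1l* had log2 fold changes of -1.22, -1.05, -1.56 and -0.47 (adjusted p = 0.0088, 0.0122, 0.0268 and 0.0205). Of the same kind, *Egln3* (-0.94), *P4ha1* (-0.75), *Higd1a* (-0.38) and *Pfkfb3* (-0.59) did not pass (adjusted p = 0.103, 0.116, 0.0533 and 0.205), nor did *Vegfa*. *Mif*, a cytokine gene, fell from 295 ± 26.4 to 184 ± 8.28 (SD, n = 3) (log2 fold change -0.68 ± 0.08 (SE), adjusted p = 0.00502). *Slc16a3* was at 188 to 197 in the control E14 libraries.

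**Figure D3:**
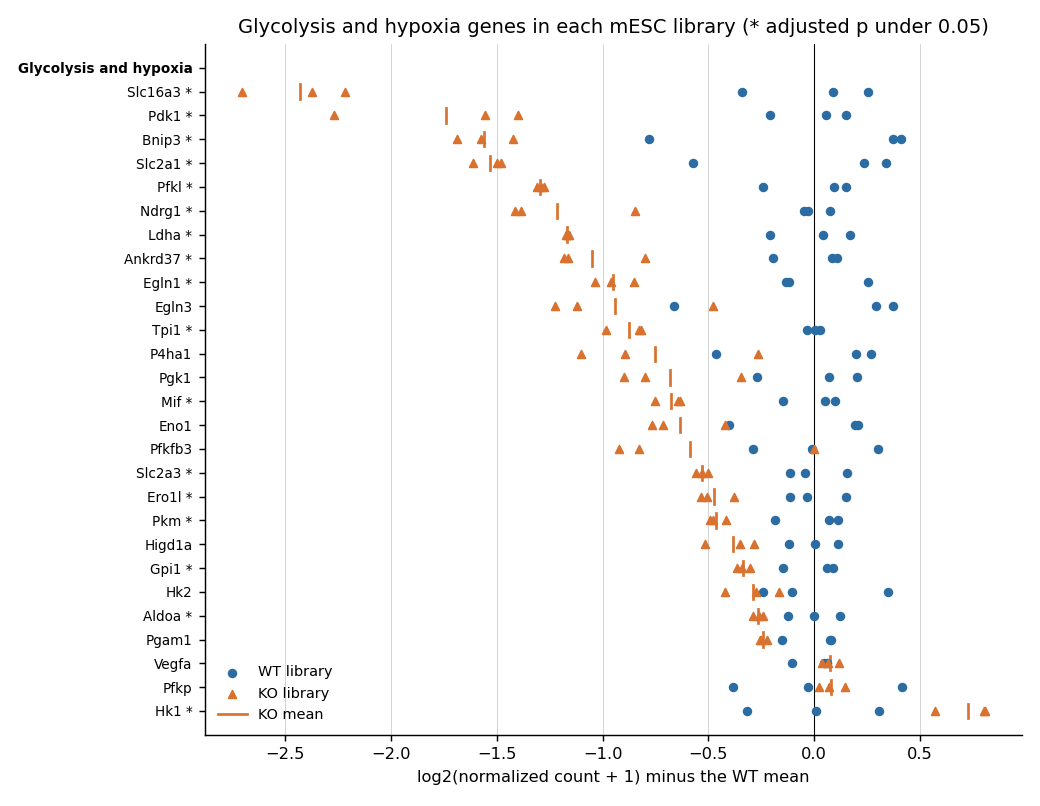
Each row is a tested gene of the glycolysis and hypoxia list, and each point a library (WT blue circles, KO orange triangles), as log2(normalized count + 1) minus the WT mean, with the KO mean as a bar and a star where the adjusted p is under 0.05. The KO libraries lie to the left of the WT libraries for most genes, from -2.43 for *Slc16a3* to -0.26 for *Aldoa* among the lower genes called, and to the right for *Hk1* (0.73).

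A gene outside the list, chosen after its values were seen, stood beside these in the stable set. *Mpc1*, a subunit of the carrier that takes pyruvate into mitochondria, was at 4.48, 6.04 and 4.39 normalized counts in WT and 14.9, 15.6 and 16.1 in KO libraries, with no overlap (log2 fold change 1.48 ± 0.14 (SE), adjusted p = 0.00291). *Txnip*, which limits glucose uptake, was lower, at 224, 197 and 209 in WT and 129, 121 and 132 in KO (log2 fold change -0.71 ± 0.07 (SE), adjusted p = 0.00317). It lies on chromosome 3. Among 16 oxidative stress and metallothionein genes it and thioredoxin reductase *Txnrd1* (-0.44) were the 2 lower genes, and none was higher. In the list of 20 tested amino acid and integrated stress response genes 4 were lower and 1 higher. For both lists the shares over all genes were 5.60% lower and 8.26% higher. The lowest p of the stress response list was that of *Ddit4*, an inhibitor of mTORC1 that stress induces. It was at 104, 85.3 and 114 in WT and 53.8, 35.98 and 37.8 in KO (log2 fold change -1.24 ± 0.18 (SE), adjusted p = 0.0103).

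The steepest fall of any gene called was that of *Esr1*, the gene of estrogen receptor alpha (mm9, chromosome 10, 5340927 to 5734948). It was at 12.7, 22.1 and 14.9 normalized counts in WT libraries and at 0.163, 0.113 and 0.132 in KO libraries (log2 fold change -3.92 ± 0.20 (SE), adjusted p = 0.00119). The KO libraries held 8 reads in all against 927 in the WT libraries, a ratio of 122 with a 95% interval of 61.6 to 283 that covers counting error only. The control E14 libraries were also at most 0.0529, on the side of the KO cells. It was called in each of the 3 fits without 1 KO library, with adjusted p up to 0.0185, and could not be tested without a WT library, because 3 libraries above the filter were then not to be had, so it is not in the stable set.

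Transcription factors formed several of the stable lower genes. *Bhlhe40*, a basic helix-loop-helix repressor, was at 71.7, 104 and 73.5 in WT and 17.95, 14.99 and 17.2 in KO libraries (log2 fold change -2.23 ± 0.16 (SE), adjusted p = 0.00189). WT library 2 was the highest of the 6 and no KO library came near the WT range. *Foxp1*, a forkhead factor, fell from 44.6 ± 1.58 to 17.3 ± 1.26 (SD, n = 3) (log2 fold change -1.32 ± 0.08 (SE), adjusted p = 0.00136), and the homeobox gene *Irx3* from 7.28 ± 0.927 to 1.25 ± 0.299 (SD, n = 3) (log2 fold change -1.89 ± 0.16 (SE), adjusted p = 0.00228). *Sox4*, a factor of early lineage cells, fell from 27.3 ± 3.55 to 11.8 ± 1.16 (SD, n = 3) (log2 fold change -1.14 ± 0.13 (SE), adjusted p = 0.00462). These genes lie on chromosomes 6, 6, 8 and 13, and in each of them the groups were apart in WT libraries 1 and 3 as well as in WT library 2.

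Other named lower genes were *Crmp1* (-1.86), *Dbn1* (-1.44), *Pkp2* (-1.19), *Evc2* (-1.61), *Dtd1* (-1.25) and *Nabp1* (-1.03), log2 fold changes in parentheses. *Crmp1* encodes a collapsin response mediator, *Dbn1* the actin-binding drebrin, *Pkp2* the desmosomal plakophilin 2 and *Evc2* a ciliary component of Hedgehog signalling. Their adjusted p ranged from 0.00189 to 0.00796 (limma), and all 6 were in the stable set. *Ndufa4l2* was low in all libraries, at 5.21, 2.62 and 4.72 in WT and 0.325, 0.1697 and 0.265 in KO (log2 fold change -2.01 ± 0.22 (SE), adjusted p = 0.00479), and was called in the 3 fits without 1 library that could test it. *Ier3*, an immediate early gene, was at 5.53, 5.35 and 4.12 in WT and 1.63, 1.47 and 1.28 in KO (log2 fold change -1.28 ± 0.15 (SE), adjusted p = 0.00519).

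Among the genes higher in KO mESCs, *Dusp14* had the smallest p. This dual-specificity phosphatase gene (mm9, chromosome 11, 83861543 to 83882763) was at 12.6, 14.8 and 13.8 normalized counts in WT and 47.1, 47.5 and 45.8 in KO libraries (log2 fold change 1.70 ± 0.08 (SE), adjusted p = 0.00112). *Foxd3*, a forkhead factor of pluripotent and neural crest cells (mm9, chromosome 4, 99322990 to 99325362), was at 8.27, 6.58 and 7.58 in WT and 34.3, 36.6 and 33.8 in KO (log2 fold change 2.09 ± 0.10 (SE), adjusted p = 0.00112). For both genes the libraries of a genotype lay close together and far from the other genotype. *Obox6*, of the oocyte-specific homeobox family, was at 6.37, 6.79 and 4.94 in WT and 32.7, 34.3 and 29.1 in KO (log2 fold change 2.24 ± 0.13 (SE), adjusted p = 0.00135), with 0 to 0.104 in the control E14 libraries.

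Several higher genes encode proteins of the cell surface and the extracellular matrix. The basement membrane gene *Nid1* (nidogen 1) was at 185, 213 and 168 in WT and 534, 605 and 559 in KO libraries (log2 fold change 1.58 ± 0.10 (SE), adjusted p = 0.00136), and the laminin gene *Lamc1* at 665, 666 and 612 in WT and 929, 998 and 982 in KO (log2 fold change 0.58 ± 0.05 (SE), adjusted p = 0.00252). Both rose without overlap. The collagen receptor kinase *Ddr2* rose from 1.53 ± 0.365 to 13.4 ± 2.11 (SD, n = 3) (log2 fold change 2.51 ± 0.17 (SE), adjusted p = 0.00158), and the heparan sulfate proteoglycan gene *Sdc2* from 29.99 ± 1.44 to 68.2 ± 0.806 (SD, n = 3) (log2 fold change 1.16 ± 0.06 (SE), adjusted p = 0.00134). Transporters and channels of the same group included the glutamate transporter *Slc1a1* and the calcium-activated chloride channel *Ano1*. Their log2 fold changes were 2.47 and 2.20 (adjusted p = 0.00189 and 0.00134), from WT means of 0.819 and 2.36 normalized counts.

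*Mid1*, an X-linked ubiquitin ligase gene that in the mouse spans the pseudoautosomal boundary, had the largest fold change of the stable set. It was at 6.64, 11.4 and 12.3 in WT and 140.2, 60.1 and 61.2 in KO libraries (log2 fold change 2.91 ± 0.37 (SE), adjusted p = 0.0076). KO library 1, in which genes of the X chromosome stood high, was more than 2 times the other KO libraries, and the control E14 libraries stood above all of them at 907 to 930.1. Further genes with large changes in the stable set were *Megf11* (2.55), *Mypn* (2.39), *Rerg* (2.32) and *Tmem117* (2.13). *Cited2*, a co-regulator that competes with HIF-1 alpha for CBP and p300, was at 34.8, 44.8 and 38.2 in WT and 97.6, 104 and 98.8 in KO (log2 fold change 1.34 ± 0.10 (SE), adjusted p = 0.00189). *Mgat3*, *Fez1*, *Trim7*, *Klhdc7a* and *Cndp2* rose as well, by 1.52, 1.61, 1.73, 1.14 and 1.001 on the log2 scale.

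The labelled cell type was checked against its markers in every library. *Pou5f1* was at 586, 659.8 and 571 normalized counts in WT and 782, 774 and 759 in KO libraries, *Sox2* at 619, 402 and 612 in WT and 604, 567 and 549 in KO, and *Nanog* at 888, 1045 and 854 in WT and 1162, 1096 and 1072 in KO. Of these, *Pou5f1* rose (log2 fold change 0.35 ± 0.06 (SE), adjusted p = 0.0164), with its call kept in 1 of 6 fits without 1 library, and *Sox2* (log2 fold change 0.10 ± 0.17 (SE), adjusted p = 0.715) and *Nanog* (log2 fold change 0.26 ± 0.08 (SE), adjusted p = 0.0784) did not pass the threshold. Over 17 core pluripotency genes 4 were higher and 0 lower (8.26% higher and 5.60% lower over all genes), with a median log2 fold change of 0.20. Fits without 1 library gave 0 to 10 higher and 0 to 1 lower. *Dppa2*, *Fgf4* and *Trim6* were the other 3 (0.64, 0.52 and 0.32).

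Naive pluripotency genes mark the state of the early epiblast. Of 23 genes tested 7 were higher and 1 lower, against 8.26% higher and 5.60% lower over all genes (median 0.25). Leaving out 1 library gave 2 to 12 higher and 1 to 5 lower. *Tfcp2l1*, a factor of the naive network, was at 844, 929 and 812 in WT and 1239.7, 1411 and 1366 in KO libraries (log2 fold change 0.64 ± 0.07 (SE), adjusted p = 0.00467). *Nr0b1* (DAX1), on the X chromosome, was at 95.3, 74.6 and 96.2 in WT and 183, 175 and 166 in KO (log2 fold change 0.98 ± 0.11 (SE), adjusted p = 0.0048). Both are in the stable set and their groups did not overlap. *Tbx3*, *Zfp459*, *Prdm14*, *Klf5* and *Esrrb* had log2 fold changes of 0.93, 0.82, 0.60, 0.49 and 0.25.

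The lower naive gene was *Dppa3* (STELLA), which protects DNA methylation after fertilization (mm9, chromosome 6, 122576428 to 122580290). It was at 81.1, 41.8 and 81.9 in WT and 13.8, 10.6 and 15.1 in KO libraries (log2 fold change -2.24 ± 0.28 (SE), adjusted p = 0.00704), and all KO libraries lay below WT library 2, the lowest WT library. It passed in every fit without 1 library. *Zfp42* (REX1) had values of 301, 102 and 183 in WT and 97.3, 79.8 and 77.9 in KO, a wide WT spread, and an adjusted p of 0.0992.

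**Figure D4:**
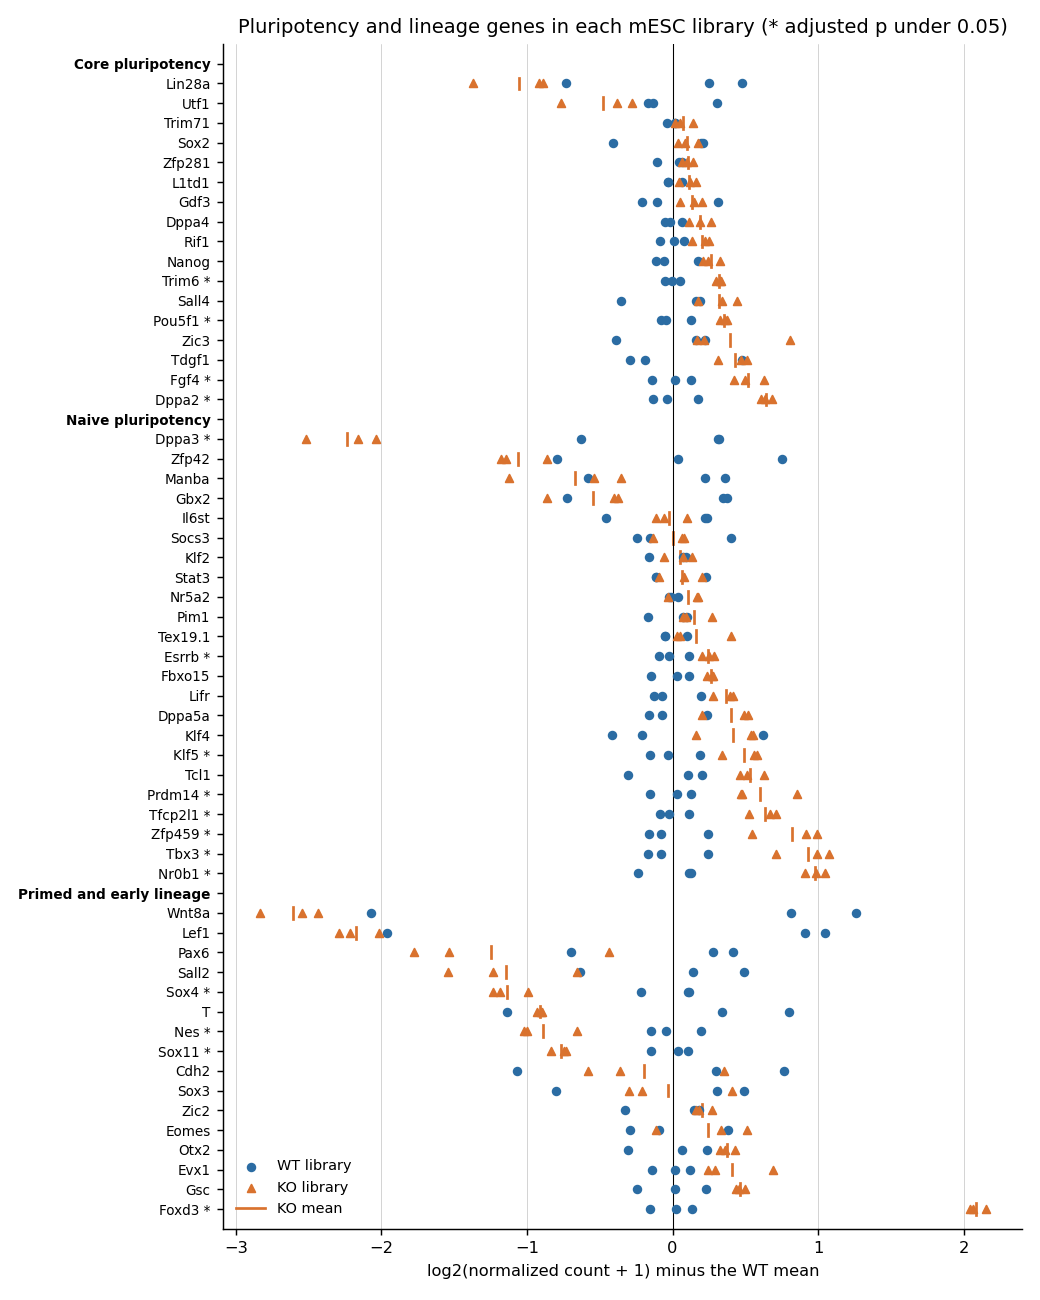
Core pluripotency, naive pluripotency and primed and early lineage genes, 1 row per tested gene and 1 point per library (WT blue circles, KO orange triangles), as log2(normalized count + 1) minus the WT mean, with the KO mean as a bar and a star where the adjusted p is under 0.05. KO libraries lie lowest for *Dppa3* among the naive genes and highest for *Foxd3* (2.09), and for *Lef1* and *Wnt8a* WT library 2 lies near the KO libraries.

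The next group held genes of the primed state and of early lineages. Of its 16 tested genes *Foxd3* was higher, and *Sox4*, *Sox11* and *Nes* were lower (-1.14, -0.77 and -0.89). Over all genes 8.26% were higher and 5.60% lower. The list median was -0.48, against -0.01 over all genes tested. Leaving out 1 library gave 1 higher and 1 to 7 lower. Other members, chosen after their values were seen, had large negative values that did not pass. *Lef1*, a nuclear partner of beta-catenin, was at 46.4, 5.46 and 51.1 in WT and 5.21, 4.41 and 4.14 in KO libraries (adjusted p = 0.111), and the ligand gene *Wnt8a* at 17.1, 1.44 and 23.7 in WT and 0.759, 0.905 and 0.441 in KO (adjusted p = 0.0842). In both, WT library 2 stood with the KO libraries and apart from WT libraries 1 and 3. The list of 16 tested WNT target genes had a median of -0.54 with 0 genes called in limma in either direction (5 at an unadjusted p under 0.05, 1 called in edgeR and 4 in DESeq2), and 8 lower in the fit without WT library 2. *Fgf5*, a defining primed gene, was at most 0.573 in all 6 libraries.

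Some defining markers of other embryonic cell types were under the filter. This held for 9 of 24 primitive endoderm and basement membrane genes and 5 of 19 trophectoderm genes. Among them the primitive endoderm genes *Gata6*, *Sox17* and *Afp* were at most 1.26, 0.909 and 0.105. The trophectoderm genes *Elf5* and *Hand1* were at most 0.105 and 0.211. The low level of these 5 genes follows from their choice among genes under the filter. *Cdx2*, a trophectoderm factor, was at 7.22, 0.321 and 9.61 in WT and 0.488, 0.566 and 1.41 in KO libraries, again with WT library 2 beside the KO libraries (adjusted p = 0.25). Of 15 tested primitive endoderm and basement membrane genes 3 were higher, *Lamc1*, *Sparc* (1.27) and *Srgn* (0.75), and *P4ha2* was lower (-1.16). Among 7 tested 2-cell-like genes *Zscan5b* was higher, at 0.948, 1.18 and 0.714 in WT and 3.36, 2.603 and 1.896 in KO (log2 fold change 0.88 ± 0.19 (SE), adjusted p = 0.031), while *Zscan4c* and *Zscan4d* had adjusted p of 0.745 and 0.737. Of 14 tested trophectoderm genes *Tfap2c* was lower (-0.56) and none was higher. *Tfap2c* was not low, at 134, 122 and 154 in WT and 90.9, 88.7 and 96.5 in KO libraries. For each of these lists the shares over all genes were 8.26% higher and 5.60% lower.

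Because lines of this kind start on feeders, fibroblast markers were examined in each library. Of 22 markers, 9 were tested, with 5 higher in KO and none lower, against 8.26% higher and 5.60% lower over all genes (median 0.48). With 1 library left out there were 2 to 5 higher and 0 to 1 lower. The defining genes *Lum*, *Dcn* and *S100a4* were at 0 in all 6 libraries and *Col3a1* was at most 0.0549. The summed level of the list was 1802 to 2087 in WT and 2497 to 2561 in KO libraries, most of it *Fn1* (fibronectin), a gene that mESCs also express. *Fn1* was at 1744, 1541 and 1548 in WT and 2185, 2324 and 2244 in KO (log2 fold change 0.48 ± 0.06 (SE), adjusted p = 0.00562), and *Cald1* (caldesmon) at 24.8, 24.2 and 26.4 in WT and 41.8, 39.4 and 39.8 in KO (log2 fold change 0.66 ± 0.07 (SE), adjusted p = 0.00429). *Col1a1*, *Fbln2* and *Pdgfrb* rose at low levels, with KO means of 2.899, 8.86 and 9.45. Neuronal genes were divided, with *Nefm* (2.04), *Nefl* (0.71) and *Cspg5* (0.87) higher and *Tubb3* (-0.79) and *Nnat* (-0.996) lower of 14 tested.

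The study names 18 genes beside RMER19B elements that ZFP708 bound. It took up *Uck2*, *Fmnl2* and *Lgi2* as bound loci for methylation analysis, whereas other members of the panel were chosen on these samples. The direction of the panel is therefore not independent evidence. Of the 18, 10 were higher and 1 lower (8.26% higher and 5.60% lower over all genes), with a median of 0.33, and none lies on chromosomes 3, 6, 8 or X. Leaving out 1 library gave 2 to 10 higher and 0 to 4 lower. *Zbtb44* was at 129, 126 and 119.9 in WT and 212, 216 and 198 in KO libraries (log2 fold change 0.74 ± 0.06 (SE), adjusted p = 0.0021), and *Fam102a* at 43.3, 40.7 and 41.7 in WT and 66.7, 78.8 and 79.9 in KO (log2 fold change 0.82 ± 0.09 (SE), adjusted p = 0.00429). These were the only panel genes in the stable set. *Cspg5*, *Ston2*, *Sdf2l1*, *Galm*, *Plin2*, *Smpd4*, *Nufip2* and *Pias2* rose by 0.87, 0.49, 0.43, 0.41, 0.37, 0.34, 0.31 and 0.29. *Tcf15* fell (-0.47, adjusted p = 0.0395).

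The remaining 7 panel genes did not pass. *Arid2*, a chromatin remodelling subunit, was at 159.7, 113 and 159.9 in WT and 105, 96.02 and 93.7 in KO libraries (adjusted p = 0.0543), and *Shc2* at 9.902, 7.06 and 10.7 in WT and 4.45, 6.28 and 5.55 in KO (adjusted p = 0.0607). Both had all KO libraries below all WT libraries. *Id4* (0.63), *Cnpy1* (-0.76), *Fmnl2* (0.32), *Lgi2* (0.09) and *Uck2* (0.05) had adjusted p from 0.0811 to 0.84.

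Imprinted genes are expressed from 1 parental copy under the control of DNA methylation. Of 20 tested paternally expressed genes 4 were higher and 1 lower (median 0.27), and of 17 tested maternally expressed genes 1 was higher and 4 lower (median -0.42), against 8.26% higher and 5.60% lower over all genes. Fits without 1 library gave 1 to 5 higher and 0 to 4 lower paternally expressed genes, and 0 to 2 higher and 1 to 8 lower maternally expressed genes. *Dio3*, a thyroid hormone deiodinase gene of the Dlk1-Dio3 region, was at 0.737, 1.07 and 0.659 in WT and 3.2003, 4.24 and 3.57 in KO libraries (log2 fold change 1.36 ± 0.16 (SE), adjusted p = 0.00508). *Slc38a4*, *Mcts2* and *Zrsr1* were higher by 0.49, 0.62 and 0.96. *Gnas*, which encodes the stimulatory G protein alpha subunit, was at 287, 228 and 267 in WT and 109.5, 134 and 129.7 in KO (log2 fold change -1.06 ± 0.11 (SE), adjusted p = 0.00432). Both *Dio3* and *Gnas* are in the stable set. The growth regulators *Grb10* (-1.03) and *Phlda2* (-1.78) were lower, each with its call kept in 1 or 2 of the fits without 1 library.

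Germline genes known to be held silent by DNA methylation gave 6 higher and 2 lower of 29 tested, against 8.26% higher and 5.60% lower over all genes (median 0.31). Without 1 library there were 1 to 9 higher and 0 to 6 lower. *Tuba3a*, a testis tubulin gene, was at 19.4, 23.3 and 15.7 in WT and 47.6, 51.1 and 48.9 in KO (log2 fold change 1.31 ± 0.14 (SE), adjusted p = 0.00429), the only member in the stable set. *Rpl10l*, *D1Pas1* and *Brdt* rose by 1.93, 1.60 and 0.95, and *Tdrd1* and *Ddx4* fell (-0.71 and -0.59). For *Rpl10l* and *D1Pas1* KO library 1, in which genes of the X chromosome stood high, was the highest. Both genes are intronless relatives of other genes, with which reads can be shared. The part of shared reads in their rise was not tested.

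Genes of the machinery with which KRAB zinc-finger proteins work were called in both directions, where 13.9% of all genes were called. Of 27 TRIM28 and H3K9 genes 3 were higher and 3 lower (median 0.01), and *Trim28* itself was at 1876, 1701 and 1803 in WT and 1756, 1839 and 1828 in KO libraries (log2 fold change 0.01 ± 0.04 (SE), adjusted p = 0.876). *Zfp57*, the imprint-protecting zinc-finger gene, was higher at 234, 296 and 235 in WT and 361, 414 and 398 in KO (log2 fold change 0.62 ± 0.11 (SE), adjusted p = 0.0164). Of 23 DNA methylation genes *Uhrf1* was higher (0.31) and *Tdg* lower (-0.34). Polycomb genes had 4 higher and 1 lower of 18, led by *Kdm2b*, at 81.6, 82.7 and 85.7 in WT and 134, 154 and 149 in KO (log2 fold change 0.80 ± 0.07 (SE), adjusted p = 0.00228), and *Suz12* (0.43), both in the stable set. Among 13 tested Hox genes 2 were higher, *Hoxc12* (1.15) and *Hoxc13* (0.62), and 2 lower, among them *Hoxa3* (-0.97) on chromosome 6.

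Signalling and growth lists held genes called in both directions or in 1, where 13.9% of all genes were called. FGF-ERK response genes had 1 higher (*Myc*, 1.05) and 3 lower (*Ier3*, *Spred1* and *Dusp4*) of 18, and BMP and NODAL genes 2 higher (*Id3*, 1.09, and *Smad7*, 0.51) and 1 lower of 19. In the p53 list 2 of 20 were higher and 4 lower, with *Cdkn1a* at 179, 180.2 and 189 in WT and 140.4, 128 and 130.003 in KO libraries (log2 fold change -0.45 ± 0.06 (SE), adjusted p = 0.00711). The cell cycle entry list had 3 higher and 1 lower of 20. *Ccnd3* (cyclin D3) was at 252, 269.9 and 259 in WT and 416, 455 and 454 in KO, with no overlap (log2 fold change 0.76 ± 0.06 (SE), adjusted p = 0.00189). Endoplasmic reticulum chaperones had 3 higher and 0 lower of 17, led by *Pdia3* (0.28), and interferon genes 3 higher and 0 lower of 14, led by *Xaf1* (1.65). Cholesterol synthesis had 1 higher and 2 lower of 22, lipid droplet and uptake genes 1 higher and 2 lower of 14, and retinoic acid response genes 1 higher and 2 lower of 13. The actin, YAP and smooth muscle list gave 3 higher and 2 lower of 18, with *Anxa1* at 1.001, 1.23 and 1.32 in WT and 7.21, 6.45 and 5.82 in KO (log2 fold change 1.78 ± 0.14 (SE), adjusted p = 0.00193).

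Blastocysts of KO mothers were compared with the mESCs to see whether the same genes moved, with the caveat that stage and genotype (maternal against maternal and zygotic loss) cannot be told apart. In blastocysts 1 of 11295 genes (0.00885%) was called (limma, 173 at an unadjusted p under 0.05). Of the stable mESC genes 151 were tested there. The 109 higher ones had a median log2 fold change of 1.00 in mESCs and -0.03 in blastocysts, with 48 of the same sign, and the 42 lower ones of -0.78 and 0.02, with 18 of the same sign. The difference of the KO effects was tested for 12975 genes over all 12 libraries, and 215 (1.66%) passed, 154 with a larger value in mESCs and 61 with a smaller one. Of the 215, 71 were under the filter in blastocysts, so that their difference restates the mESC change, and 144 were tested at both stages. The stable genes were chosen by their mESC change, so their values are a description.

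*Dusp14* led this comparison. Its level in blastocysts was 296 ± 12.1 in WT and 266 ± 16.02 in KO pools (SD, n = 3), and the KO effect in mESCs exceeded that in blastocysts by 1.86 ± 0.11 (SE), adjusted p = 2.08e-05. *Slc1a1* rose from 0.819 to 9.09 in mESCs and was at 257 and 257 in blastocysts (difference 2.46 ± 0.22 (SE), adjusted p = 0.000673). *Slc16a3* fell in mESCs and stood low in both kinds of blastocyst, at 1.35 and 1.97, where a fall would be hard to see. *Pfkl* (-1.29 in mESCs, -0.23 in blastocysts) and *Pdk1* (-1.74 and -0.03) also passed this test. *Pdk1* too was low in blastocysts, at 2.69 in WT and 2.50 in KO pools. *Ldha* (-1.17 and 0.06) had an adjusted p of 0.503.

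**Figure D5:**
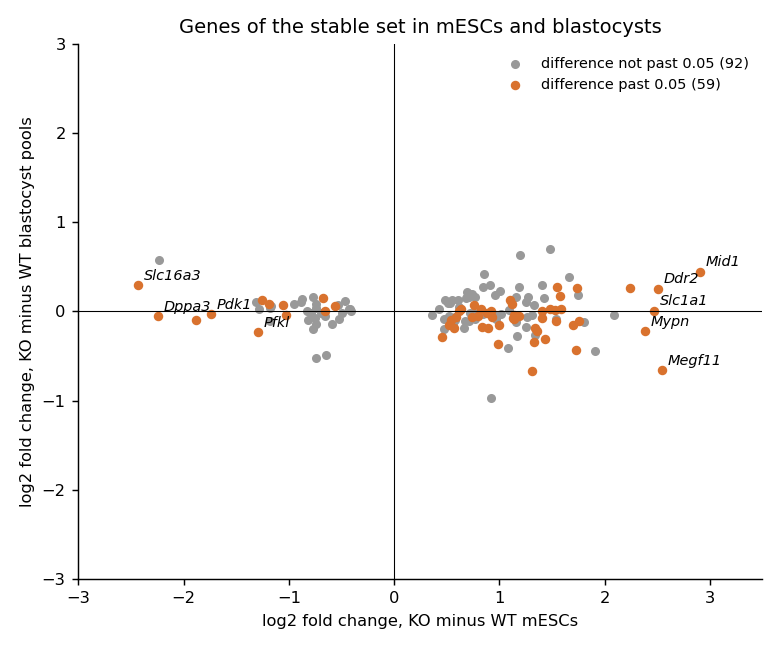
KO minus WT log2 fold change in mESCs (x axis) and in blastocyst pools (y axis) for the 151 genes of the stable set tested in both, orange for the 59 whose difference between the KO effects passed an adjusted p of 0.05. Values in blastocysts lie between -0.97 and 0.70, and those in mESCs reach -2.43 and 2.91.

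Overexpression of ZFP708 in E14 cells was set beside the KO and WT mESC comparison. The comparisons share no library, and in OE cells 21.9% of the 12257 genes tested were higher and 28.1% lower. Of 859 genes higher in KO mESCs and tested in both, 141 (16.4%) were lower in OE cells and 349 (40.6%) were higher. Of 665 lower genes 57 (8.57%) were higher in OE cells and 326 (49.0%) lower. As a share of the OE calls, these were 4.62% of the 3049 lower and 13.3% of the 2620 higher OE genes for KO-higher genes, and 2.18% of the higher and 10.7% of the lower OE genes for KO-lower genes.

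The 8 genes of opposite sign with the smallest of the larger p were higher in KO mESCs and lower in OE cells, namely *Cited2* (1.34 in KO, -0.53 in OE), *Anxa1* (1.78, -1.60), *Trib1* (1.10, -1.23), *Sdc2* (1.16, -0.84), *Spats2l* (1.19, -1.86), *Cald1* (0.66, -1.50), *Dpp6* (1.86, -1.51) and *Fn1* (0.48, -0.21), as log2 fold changes. *Trib1*, a pseudokinase gene, was at 14.5, 15.5 and 12.7 in WT and 30.9, 31.6 and 31.9 in KO mESCs, and all KO libraries stood above all WT libraries. Of the 16 glycolysis and hypoxia genes lower in KO mESCs, *Ldha* (0.16), *Pdk1* (0.21) and *Ndrg1* (0.23) were higher in OE cells, and *Slc16a3* (-0.43), *Ankrd37* (-0.65), *Egln1* (-0.24), *Gpi1* (-0.19), *Slc2a3* (-0.15) and *Mif* (-0.10) lower. The other 7 did not pass there.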

How the data were processed

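RNA of the mESCs was read as 75-base single reads from directional poly(A) libraries. The study's methods name no library protocol for the blastocyst pools, and the part of a protocol difference was not tested. Per the submitters' processing notes, the authors used STAR 2.4.2a, HTSeq, SAMtools and DESeq2, with NCBIM37/mm9 as the builds named. They deposited 1 table of gene counts divided by DESeq2 size factors, a signal per gene that is not corrected for gene length. The 18504 rows held 108 repeats, which left 18396 genes, and 26 symbols turned into dates by a spreadsheet were restored. Every value came out as a whole number of reads (100% within 0.01), so reads were recovered by dividing by the value of 1 read.

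Genes that reached 1 in 3 or more of the libraries compared were fitted with limma 3.58.1 (R 4.3.3) on log2(value + 1) with trend and robust options, and adjusted p-values are from limma by Benjamini-Hochberg over all genes tested, two-sided, unless another tool is named. edgeR 4.0.16 and DESeq2 1.42.0 on recovered reads were alternatives, as were other pseudocounts, filters, weights, a replicate block and leaving out each library. Scripts were tested on data simulated for the 6 mESC libraries, with 100 genes changed by 1 and 100 by 2 on the log2 scale. False calls made up 4.68% of the calls of limma, 3.57% of those of edgeR and 18.5% of those of DESeq2. The simulated libraries were independent of each other and held no close pairs and no shifts of whole chromosomes. These shares therefore do not measure false calls in the real libraries. Merged pairs were not simulated. The members and gene lists were chosen with earlier results of these data known. Named genes were those of smallest p or largest fold change that passed, up to 6 called members of each list, up to 3 defining markers of a cell type, the whole bound-element panel, Zfp708 and its cluster, and the smallest p of the blastocyst and OE comparisons. Some others are said to be chosen after their values were seen. Further list members, among them the other tested glycolysis and hypoxia genes, were reported beyond this rule without that remark. Some genes that the rule names are not reported here. Intervals cover counting error only.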

Additional observations from a re-analysis of the deposited data

Results flagged for a closer look

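For 32 named genes tested at both stages the KO effect in mESCs differed from that in blastocysts by a test of the difference itself over 12 libraries (limma, adjusted p under 0.05). Values are the KO minus WT log2 fold change in mESCs minus that in blastocysts. Stage and the zygotic part of the genotype cannot be told apart in them. Another 16 named genes passed the same test but were under the filter in blastocysts, so their difference only restates the mESC change and is not listed. Among the listed genes lower in KO mESCs, *Slc16a3*, *Irx3* and *Pdk1* had WT blastocyst means of only 1.35, 1.29 and 2.69 normalized counts. A fall would be hard to see there. In glycolysis and hypoxia genes the differences were -2.73 for *Slc16a3*, -1.71 for *Pdk1*, -1.06 for *Pfkl*, -0.83 for *Mif* and -0.94 for *Egln1*. In transcription and chromatin factors they were -1.79 for *Irx3*, 0.60 for *Tfcp2l1*, 1.24 for *Tbx3*, 1.97 for *Obox6*, 0.85 for *Kdm2b*, 0.80 for *Zbtb44* and 0.96 for *E2f2*. In the other naive pluripotency and imprinted genes they were -2.19 for *Dppa3* and -1.13 for *Gnas*. In genes of membrane transport and the cell surface they were 2.46 for *Slc1a1*, 2.11 for *Abcb1b*, 2.25 for *Ddr2*, 1.56 for *Nid1*, 3.21 for *Megf11*, 1.08 for *Pecam1* and -1.27 for *Pkp2*. In the remaining genes they were 1.86 for *Dusp14*, 1.51 for *Mgat3*, 1.15 for *Cndp2*, 2.61 for *Mypn*, -0.99 for *Nabp1*, -1.38 for *Dtd1*, 2.47 for *Mid1*, -1.20 for *P4ha2*, 0.80 for *Fam102a*, 1.17 for *Amotl2* and 0.97 for *Trib1*. The adjusted p ran from 2.08e-05 for *Dusp14* to 0.0494 for *E2f2*.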

How the results depend on the processing

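Main counts in KO mESCs were 988 higher and 670 lower. Higher and lower counts were 2874 and 2822 with sample weights, 1840 and 1626 in a fit over all mESC and E14 groups, 200 and 91 at a threshold of 0.01, and 221 and 83 past a log2 fold change of 1 in size. DESeq2 called 1118 lower. With the close libraries averaged they were 0 and 0 in limma (1830 at an unadjusted p under 0.05), and summed they were 0 and 0 in edgeR and 350 and 161 in DESeq2. Leaving out 1 library gave 148 to 2041 higher and 63 to 1844 lower. For the 215 genes whose KO effect differed between mESCs and blastocysts, the count was 116 and 345 at pseudocounts of 0.1 and 5, 142 with a filter at 10, 4197 with sample weights, 24 with averaging and 69 to 650 without 1 library. The 141 genes higher in KO and lower in OE became 85 with the filter at 10, 615 with weights, 0 with averaging and 19 to 366 without 1 library. The 57 lower in KO and higher in OE became 528 with weights, 0 with averaging and 5 to 244 without 1 library. The cause of these shifts was not tested.

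Equal replicate numbers did not pair the samples, since deviations of same-numbered libraries correlated across genes at 0.16, 0.22 and -0.25. With a replicate block the counts were 525 higher, 279 lower, 40 differing from blastocysts, 79 higher in KO and lower in OE, and 23 the other way. Of 154 named genes called, 36 lost the call under the block. No named gene changed sign under any alternative. Between 1 (without WT library 2) and 85 (without KO library 3) of the named calls were lost when a library was left out, where some genes could no longer be tested. With the close libraries averaged, all 154 lost the call in limma. With their reads summed, all 154 lost it in edgeR and 57 in DESeq2. Depth limits genes near 1 normalized count, where 1 read was worth 0.044 to 0.057.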

Other observations

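Further genes also moved in KO mESCs. *Pecam1*, an adhesion molecule of endothelial and early pluripotent cells, was at 77.4, 71.6 and 78.4 normalized counts in WT and 149, 143 and 134 in KO libraries (log2 fold change 0.89 ± 0.07 (SE), adjusted p = 0.00189, limma). *Abcb1b*, a drug efflux pump gene, was at 18.3, 17.7 and 18.2 in WT and 44.4, 31.2 and 31.6 in KO (log2 fold change 0.93 ± 0.14 (SE), adjusted p = 0.0126). Neither gene's groups overlapped. Of the p53 list, *Sesn1* (0.70) and *Ei24* (0.51) were higher and *Bbc3* (-0.51), *Phlda3* (-0.62) and *Zmat3* (-0.46) lower, beside *Cdkn1a* (-0.45).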
